A study of Mus musculus with 18 samples.

Results

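The genes described here are the D and E cyclins (Ccnd1, Ccnd2, Ccnd3, Ccne1 and Ccne2), the cyclin D partner kinases Cdk4 and Cdk6, and the CDK inhibitors Cdkn1b and Cdkn1c. They were chosen by name, and their probes were found by matching the RefSeq transcript of each probe to these symbols. All 9 genes were found, with 14 of the 56605 probes on the array and 9 of its 22911 gene symbols, and all 9 genes and 14 probes passed the filter on dim signal.

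Expression was measured in mouse embryonic stem cells of strain 129SV on 18 arrays of 1 colour. Per the labels, the cells of every group were Esrrb knockout cells expressing Raf-ErT2, a Raf kinase fused to a hormone-binding domain that 4-hydroxytamoxifen (4OHT) switches on, so that Mek and then ERK become active. Rescue-labelled cells carried an Esrrb transgene and KO-labelled cells an empty vector. Each line had 3 arrays titled 0h (untreated), 3 titled 8h (250 nM 4OHT for 8 h) and 3 titled 8h2h (4OHT for 8 h, then a Mek inhibitor for 2 h), and every culture was first kept for 24 h with LIF and serum, where PD173074 (250 nM), which blocks FGF receptors, took the place of 2 µM Chir99021. As to whether a line is 1 clone, and whether the 3 arrays of a group came from separate cultures, the labels do not say, so the p-values measure the spread between these arrays only, which may be technical.

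Levels below are log2 processed signal minus the 75th percentile of the same array, and differences are differences of group means on that scale. A gene counts as called where limma's adjusted p (Benjamini-Hochberg, over 16069 genes) was below 0.05; the fit shared 1 spread per gene over all 18 arrays. Each replicate letter (a, b, c) stands for 1 slide with all 6 groups on it. The KO-labelled array titled 8h2h on slide b stood apart: 88.6% of its probes were well above background, against 46.6% to 63.8% on the other arrays, so results are also given without it. The source names of 12 arrays disagreed with their titles on the Mek inhibitor, which the names place in the arrays titled 8h. Groups are named by title here. The fast ERK outputs Dusp6, Spry2, Spry4, Egr1 and Etv4 rose from 0h to 8h in both lines (5 of 5 called in each), and within slides each of the 5 had less signal when titled 8h2h than when titled 8h, in 30 of 30 pairs of arrays. Esrrb, the targeted gene, gave signal in every group, and in 9 of 9 pairs matched on slide and title the KO-labelled array had more of it, by 0.41 to 2.55. The position of its probe relative to the deleted part and to the transgene is not known here. Every difference between lines below rests on the labels alone.

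D-type cyclins bind Cdk4 or Cdk6, and E-type cyclins bind Cdk2, and these kinases phosphorylate the retinoblastoma protein, which frees E2F factors to switch on genes of DNA replication. Cdkn1b (p27Kip1) and Cdkn1c (p57Kip2) bind cyclin-CDK complexes and restrain them. In most cell types ERK signalling raises cyclin D1, whereas mouse embryonic stem cells are known for low D-type cyclins, high cyclin E and a short G1 phase.

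The first question was what followed from 0h to the arrays titled 8h. Of the 9 genes, 4 changed in each line, in the same directions: Ccnd2 and Ccne1 rose, and Ccnd1 and Cdkn1b fell. Of all genes tested, 25.8% were called in the Rescue-labelled cells and 22.5% in the KO-labelled cells. Levels at 0h and 8h did not overlap for 7728 and 6870 of the 16069 genes, and for 6 and 4 of the 9. The median difference of the 9 genes was -0.30 against -0.04 for all genes in the Rescue-labelled cells, and -0.06 against -0.02 in the KO-labelled cells. Without the array that stood apart, 5 of the 9 were called in the Rescue-labelled cells, the added one being Ccnd3, and 4 in the KO-labelled cells, with 35.2% and 31.3% of all genes called.

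**Figure D1:**
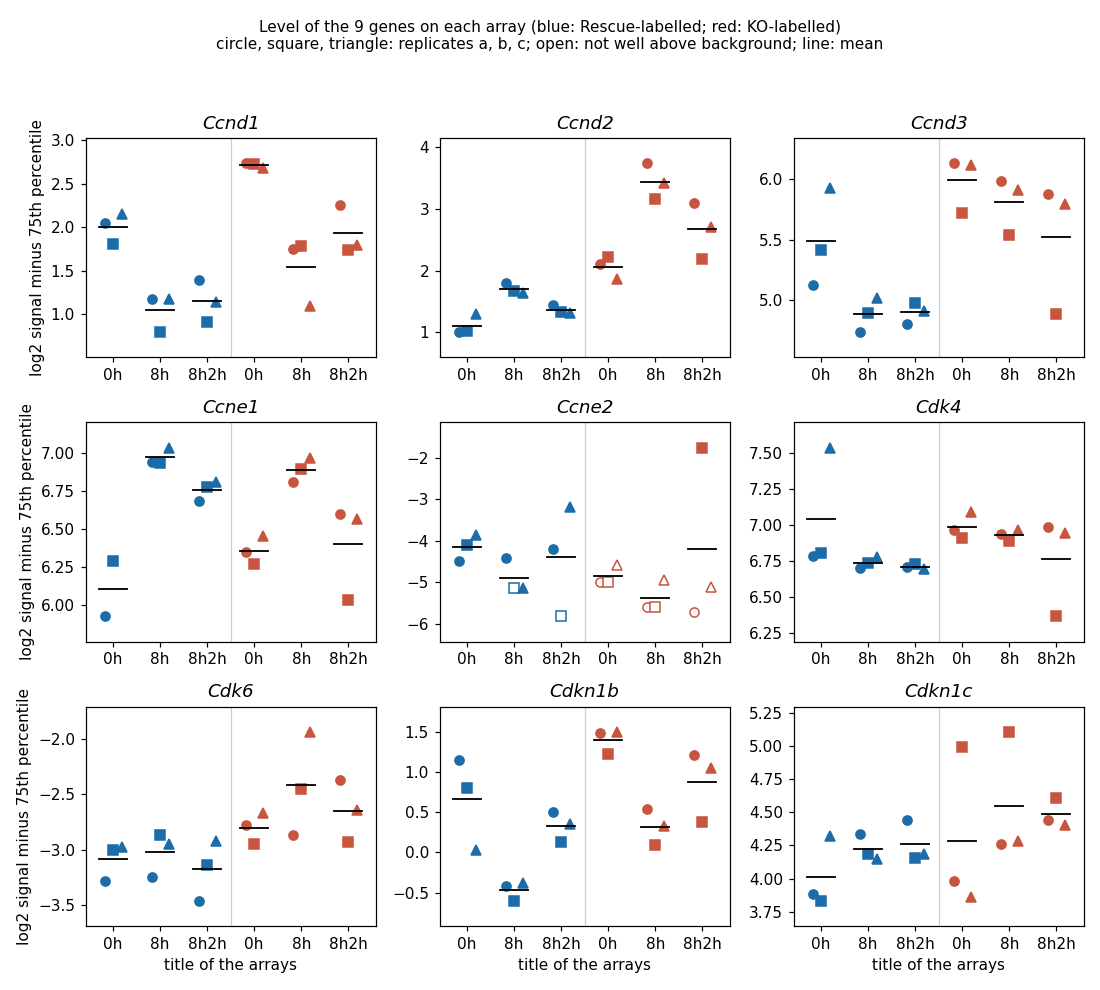
Level of each of the 9 genes on each array (log2 processed signal minus the 75th percentile of the array; the scale differs between panels), with Rescue-labelled arrays in blue, KO-labelled arrays in red, replicates as symbols, the group mean as a line and open symbols for spots not well above background. Ccnd1 and Cdkn1b sit lower and Ccnd2 and Ccne1 higher on the arrays titled 8h than at 0h in both lines, and all KO-labelled Ccnd2 levels, from 1.87 to 3.74, lie above all Rescue-labelled ones, from 1.00 to 1.80.

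Ccnd1 encodes cyclin D1. Its level on slides a, b and c, in that order, in the Rescue-labelled cells was 2.05, 1.81 and 2.16 at 0h and 1.18, 0.80 and 1.18 when titled 8h. On the KO-labelled arrays it was 2.74, 2.73 and 2.69 at 0h and 1.75, 1.79 and 1.09 when titled 8h. In each line all 3 arrays titled 8h were below all 3 at 0h. The difference was -0.96 ± 0.20 (SE, n = 3 per group, adjusted p = 0.00258 in limma), or 1.94-fold lower, in the Rescue-labelled cells and -1.17 ± 0.20 (adjusted p = 0.000584), or 2.25-fold lower, in the KO-labelled cells. The difference between these 2 changes was -0.22 ± 0.29 (adjusted p = 0.919), with a 95% interval from -0.83 to 0.40.

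Ccnd2 encodes cyclin D2 and went the other way. The Rescue-labelled levels were 1.00, 1.02 and 1.29 at 0h and 1.80, 1.67 and 1.64 when titled 8h, and the KO-labelled levels were 2.11, 2.22 and 1.87 at 0h and 3.74, 3.16 and 3.42 when titled 8h. The groups did not overlap in either line. The rise was 1.37 ± 0.20 (adjusted p = 0.000126), or 2.59-fold, in the KO-labelled cells and 0.60 ± 0.20 (adjusted p = 0.0373), or 1.51-fold, in the Rescue-labelled cells. The latter call was lost when any 1 of 5 of its 6 arrays was left out (adjusted p from 0.0726 to 0.112), replicate c at 0h being the exception. It was also lost with normexp background correction (adjusted p = 0.124) and without the filter on dim probes (0.067). Ccnd2 was read by 3 probes, and all 3 gave higher signal in both lines, by 0.44, 0.60 and 0.93 in the Rescue-labelled cells and by 1.37, 1.40 and 1.40 in the KO-labelled cells. In a limma fit over all kept probes the Rescue-labelled rises had adjusted p of 0.136, 0.0525 and 0.00961, and all 3 KO-labelled rises were called.

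The rise of Ccnd2 was 0.78 ± 0.28 larger in the KO-labelled cells, which did not pass the test of the difference itself (unadjusted p = 0.0147, adjusted p = 0.254). None of the 9 genes did, in limma over all genes: 1 of 9 had an unadjusted p under 0.05, and 1.92% of all genes were called.

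Ccnd3 encodes cyclin D3 and had no call between these titles. It averaged 5.49 ± 0.41 (SD, n = 3) at 0h and 4.89 ± 0.14 when titled 8h in the Rescue-labelled cells, a difference of -0.60 ± 0.25 (adjusted p = 0.0932). Without the array that stood apart, which is in neither group but adds to the shared spread, the same difference had an adjusted p of 0.021, and without replicate a at 0h it was -0.78 (adjusted p = 0.0494). In the KO-labelled cells it was -0.18 ± 0.25 (adjusted p = 0.693).

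Ccne1 encodes cyclin E1, the partner of Cdk2 at the start of S phase. The Rescue-labelled levels were 5.92 and 6.28 at 0h, where replicate c was an outlier spot and was not used, and 6.94, 6.94 and 7.04 when titled 8h. The KO-labelled levels were 6.35, 6.27 and 6.45 at 0h and 6.81, 6.90 and 6.97 when titled 8h. All arrays titled 8h were above all arrays at 0h in their line. The rise was 0.87 ± 0.17 (n = 2 and 3, adjusted p = 0.00152), or 1.82-fold, in the Rescue-labelled cells and 0.54 ± 0.15 (n = 3 per group, adjusted p = 0.0185), or 1.45-fold, in the KO-labelled cells. The latter call was lost without replicate a or b at 0h or replicate c titled 8h (adjusted p from 0.0516 to 0.0709).

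Ccne2, which encodes cyclin E2, was near background. Its spot was well above background on 3, 2 and 2 of the 3 Rescue-labelled arrays titled 0h, 8h and 8h2h, and on 0, 0 and 1 of the KO-labelled ones. The dimmest signal counted as well above background, before scaling, was 6.44 to 10.6 on Rescue-labelled arrays and 13.5 to 34.6 on KO-labelled ones. These counts therefore do not compare Ccne2 between the lines. The only KO-labelled array to detect it was the one that stood apart, at -1.75 against -5.72 and -5.10 on the other 2 of its group. No difference was called, the SE of each was 0.80, and no fold is given.

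The kinase genes differed little between titles. Cdk4 averaged 7.04 ± 0.43 (SD, n = 3) at 0h and 6.74 ± 0.04 when titled 8h in the Rescue-labelled cells, where replicate c at 0h was high at 7.54, and 6.99 ± 0.09 and 6.93 ± 0.04 in the KO-labelled cells. Its differences were -0.30 ± 0.19 (adjusted p = 0.277) and -0.06 ± 0.19 (adjusted p = 0.875), with 95% intervals from -0.71 to 0.10 and from -0.46 to 0.34. Cdk6 averaged -3.09 ± 0.17 and -3.02 ± 0.20 in the Rescue-labelled cells, and -2.80 ± 0.14 and -2.42 ± 0.47 in the KO-labelled cells. Neither of its differences, 0.07 ± 0.22 and 0.38 ± 0.22, was called (adjusted p = 0.874 and 0.258).

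Cdkn1b, the p27Kip1 inhibitor, fell. Its Rescue-labelled levels were 1.15, 0.80 and 0.03 at 0h and -0.42, -0.60 and -0.38 when titled 8h. Its KO-labelled levels were 1.49, 1.22 and 1.50 at 0h and 0.54, 0.09 and 0.33 when titled 8h. The groups did not overlap in either line, although replicate c of the Rescue-labelled arrays at 0h lay close to the arrays titled 8h. The difference was -1.13 ± 0.26 (adjusted p = 0.0044), or 2.18-fold lower, and -1.08 ± 0.26 (adjusted p = 0.00649), or 2.12-fold lower. Cdkn1c, the p57Kip2 inhibitor, showed 0.21 ± 0.27 (adjusted p = 0.65) and 0.27 ± 0.27 (adjusted p = 0.559); on slide b its KO-labelled levels were high, at 4.99 at 0h and 5.10 when titled 8h, against 3.86 to 4.29 on the other slides.

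Promoter sequences were found in the RefSeq table (build GRCm38.p6) for 5 of the 9 genes: Ccnd3, Ccne1, Cdk4, Cdk6 and Cdkn1b. The 250 bases before the start site are printed for Ccne1 and Cdkn1b, since these are the genes with an entry that moved in opposite directions in both lines. Capitals mark GC boxes, the letters bound by Sp1-type factors (GGGCGG on either strand). Ccne1 is on the minus strand at chr7:38107491-38107740, and Cdkn1b is on the plus strand at chr6:134920151-134920400.
Ccne1: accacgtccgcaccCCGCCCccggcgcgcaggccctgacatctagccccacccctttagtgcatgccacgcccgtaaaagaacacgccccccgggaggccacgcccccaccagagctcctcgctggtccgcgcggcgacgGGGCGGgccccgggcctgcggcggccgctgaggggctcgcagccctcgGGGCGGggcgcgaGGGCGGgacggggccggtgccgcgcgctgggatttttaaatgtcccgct
Cdkn1b: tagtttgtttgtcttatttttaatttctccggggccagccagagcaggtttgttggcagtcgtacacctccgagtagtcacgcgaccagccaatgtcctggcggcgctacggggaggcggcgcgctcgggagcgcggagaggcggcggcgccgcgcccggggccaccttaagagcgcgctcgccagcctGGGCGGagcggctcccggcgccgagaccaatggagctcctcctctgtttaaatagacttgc
The GC box occurred 4 times in the Ccne1 window and once in that of Cdkn1b, and 32.7% of the 32851 promoter windows held at least 1. The E2F words TTTCCCGC, TTTGGCGC, TTTGCCGC and TTTCGCGC, searched on both strands, were in neither window and in 1.86% of all windows. GC content was 76% for Ccne1 and 64.4% for Cdkn1b. The E-box CACGTG, read by Myc-type factors, occurred 4 times in the Cdk4 window and in 6.02% of all windows. It was 1 of 8 motifs searched in the windows of the 5 genes. The words TGACTCA (AP-1), TGACGTCA (CRE) and CCGGAAGT (ETS) were in none of these, and in 4.46%, 1.55% and 2.88% of all windows. Cdk6 held 1 E-box and 1 TATA box (TATAAA, 12.4% of all windows). Ccnd3 had more than 1 window. The one at chr17:47504801-47505050 held 1 FOXO word (GTAAACA, 3.17% of all windows), and the one at chr17:47593217-47593466 held none.

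The second question was how the arrays titled 8h2h differed from those titled 8h. Of the 9 genes, 1 was called in the KO-labelled cells, where Ccnd2 fell, against 6.06% of all genes. In the Rescue-labelled cells 0 of 9 were called in limma, with 1 of 9 at an unadjusted p under 0.05, against 2.35% of all genes called; 2 of 9, Ccnd2 and Cdkn1b, were called when only the arrays compared were fitted, with 9.21% of all genes called. In the KO-labelled cells that fit called 0 of 9 and 0.61% of all genes. Levels titled 8h and 8h2h did not overlap for 4652 and 3313 of the 16069 genes (Rescue- and KO-labelled), and for 3 and 2 of the 9. These comparisons share the arrays titled 8h with those above, so a high or low array there moves both.

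**Figure D2:**
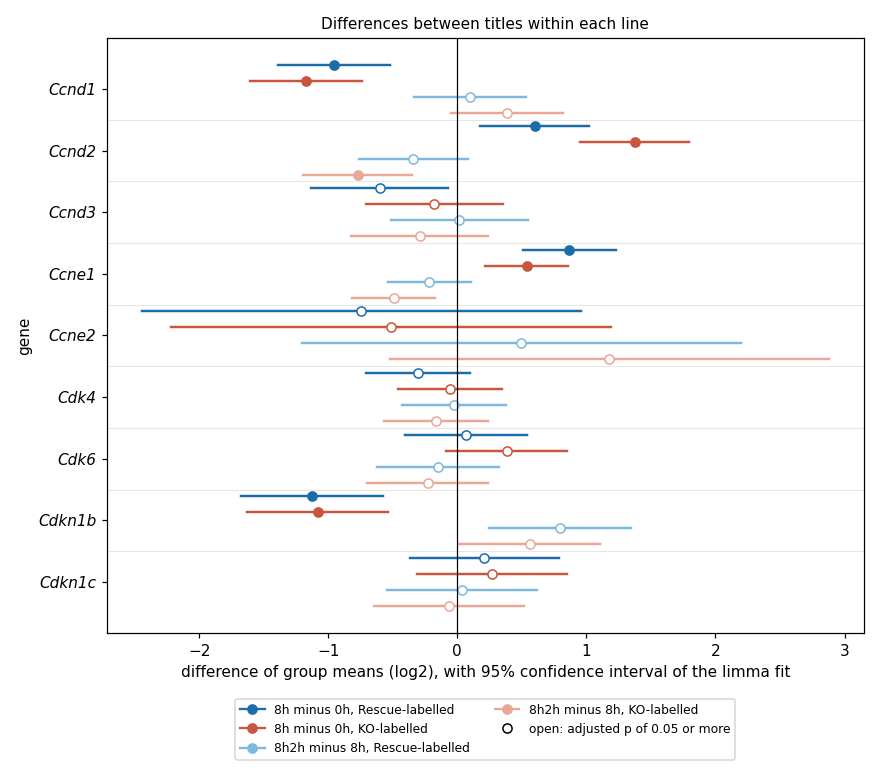
Differences between titles for each gene and line (log2, points) with the 95% confidence interval of the limma fit (bars), filled where the adjusted p was below 0.05. Filled points stand for Ccnd1, Ccnd2, Ccne1 and Cdkn1b from 0h to 8h in both lines and for Ccnd2 from 8h to 8h2h in the KO-labelled cells, at -0.77.

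Ccnd2 was at 3.10, 2.20 and 2.71 on the KO-labelled arrays titled 8h2h, all below the lowest array titled 8h, at 3.16. The difference was -0.77 ± 0.20 (adjusted p = 0.0323), or 1.71-fold lower. The call was lost without replicate a or c titled 8h or replicate b or c titled 8h2h, with adjusted p from 0.0515 to 0.134, and without the array that stood apart it was -0.54 (adjusted p = 0.0915). It was also lost with only the arrays compared (adjusted p = 0.428), without scaling (0.528), with normexp background correction (0.0527) and without the filter on dim probes (0.0601). The other 2 Ccnd2 probes gave -0.67 and -0.45 (adjusted p = 0.13 and 0.222 in limma over all kept probes), neither of them called. In the Rescue-labelled cells Ccnd2 was at 1.44, 1.33 and 1.32, also below all arrays titled 8h, by 0.34 ± 0.20 (adjusted p = 0.732). The KO-labelled level stayed above 0h by 0.60 ± 0.20 (adjusted p = 0.0436). This call was lost when any 1 of 5 of its 6 arrays was left out (adjusted p from 0.0531 to 0.15), the exception being the array that stood apart. It was also lost when only the arrays compared were fitted (0.277) and without the filter on dim probes (0.0773).

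Ccne1 was at 6.68, 6.78 and 6.81 on the Rescue-labelled arrays titled 8h2h and at 6.60, 6.03 and 6.56 on the KO-labelled ones. Its differences from 8h were -0.22 ± 0.15 (adjusted p = 0.886) and -0.49 ± 0.15 (adjusted p = 0.0703), and the groups did not overlap in either line. Without replicate a titled 8h2h the latter was -0.60 (adjusted p = 0.0419), and without replicate b, the array that stood apart, -0.31 (adjusted p = 0.165). Against 0h it remained 0.65 ± 0.17 higher in the Rescue-labelled cells (n = 2 and 3, adjusted p = 0.0143). That call was lost without replicate a at 0h (adjusted p = 0.147), which leaves 1 array at 0h whose spread is taken from the other groups. In the KO-labelled cells the difference from 0h was 0.04 ± 0.15 (adjusted p = 0.865).

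Ccnd1 stayed low. On the arrays titled 8h2h it was at 1.40, 0.91 and 1.14 in the Rescue-labelled cells and at 2.25, 1.74 and 1.79 in the KO-labelled cells. It was 0.10 ± 0.20 (adjusted p of 1) and 0.38 ± 0.20 (adjusted p = 0.3) from the level at 8h, and 0.86 ± 0.20 (adjusted p = 0.00793) and 0.79 ± 0.20 (adjusted p = 0.0128) below 0h; the latter call was lost with only the arrays compared (adjusted p = 0.085). Against 0h, the arrays titled 8h2h thus had 2 of 9 genes called in the Rescue-labelled cells (Ccnd1 lower and Ccne1 higher) with 18.2% of all genes called, and 2 of 9 in the KO-labelled cells (Ccnd1 lower and Ccnd2 higher) with 21.1%. Without the array that stood apart these counts were 3, with Ccnd3 added, and 2, with 27.7% and 21.1% of all genes called.

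Cdkn1b was at 0.50, 0.13 and 0.36 on the Rescue-labelled arrays titled 8h2h and at 1.21, 0.37 and 1.05 on the KO-labelled ones. The first were above all arrays titled 8h, by 0.79 ± 0.26, which missed the threshold over all genes (unadjusted p = 0.00773, adjusted p = 0.172) but passed it when only these 2 groups were fitted (adjusted p = 0.0116). In the KO-labelled cells the difference was 0.56 ± 0.26 (adjusted p = 0.236) and the groups overlapped. Its level titled 8h2h was -0.33 ± 0.26 and -0.52 ± 0.26 from 0h (adjusted p = 0.438 and 0.165), the latter being -0.27 without the array that stood apart. Ccnd3, Cdk4, Cdk6 and Cdkn1c differed from 8h by -0.29 to 0.04, with adjusted p of 0.503 or more. For Cdk6 in the KO-labelled cells this depended on the normalization. With quantile normalization its difference from 8h was -1.40 in place of -0.23, and that from 0h was -1.06 in place of 0.15, neither of them called. The change from 8h to 8h2h did not differ between lines for any of the 9 in limma (0 at an unadjusted p under 0.05; 0.0622% of all genes were called), and the SE of these differences ranged from 0.21 to 1.13.

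The third question was how the lines differed at each title. Every call was in the same direction, with higher levels in the KO-labelled cells: 2 of 9 genes at 0h (Ccnd1 and Ccnd2; 16.4% of all genes were called), 3 of 9 titled 8h (Ccnd2, Ccnd3 and Cdkn1b; 19.3%) and 2 of 9 titled 8h2h (Ccnd1 and Ccnd2; 20.0%). The medians of the 9 genes were 0.29, 0.49 and 0.52, against -0.02, 0.00 and -0.05 for all genes. Without the array that stood apart the counts were 3, 4 and 5, and the shares of all genes called were higher too, at 25.8%, 29.0% and 26.9%. With all arrays, the lines did not overlap for 5691, 7738 and 5287 of the 16069 genes, and for 5, 5 and 3 of the 9. The 5 at 0h include Ccne2, which was lower in the KO-labelled cells. It was near background and passed the filter on dim signal only through the Rescue-labelled arrays at 0h, so it is not read as a line difference. The 3 titled 8h2h include Ccne1, also lower in the KO-labelled cells.

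**Figure D3:**
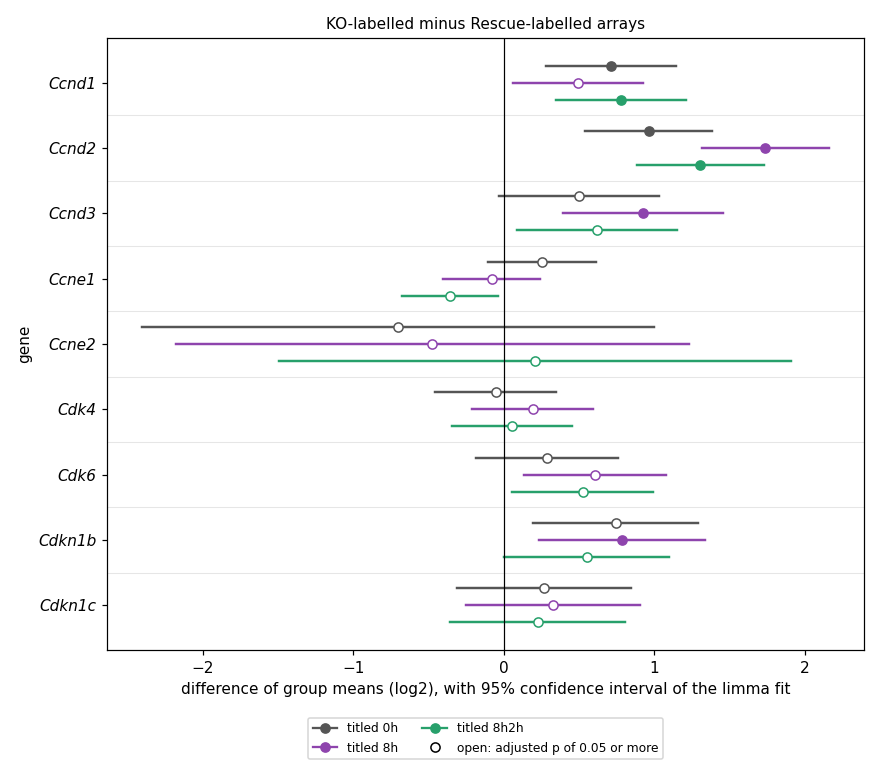
KO-labelled minus Rescue-labelled arrays for each gene at each title (log2, points) with the 95% confidence interval of the limma fit (bars), filled where the adjusted p was below 0.05. Ccnd2 is filled at all 3 titles, at 0.96, 1.74 and 1.31, and Ccnd3, Cdk6 and Cdkn1b lie above 0 at each title with 1, 0 and 1 filled points (with quantile normalization Cdk6 lay at -0.77 titled 8h2h).

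Ccnd2 differed most among the 9 genes at each title. The KO-labelled cells were higher by 0.96 ± 0.20 at 0h (adjusted p = 0.00359), by 1.74 ± 0.20 titled 8h (adjusted p = 3.1e-05), or 3.34-fold, and by 1.31 ± 0.20 titled 8h2h (adjusted p = 0.000313). No KO-labelled array was below 1.87 and no Rescue-labelled array above 1.80, whatever the title. The other 2 probes gave 0.86 and 1.29 at 0h, 1.82 and 1.76 titled 8h, and 1.67 and 1.37 titled 8h2h.

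Ccnd1 was higher in the KO-labelled cells by 0.71 ± 0.20 at 0h (adjusted p = 0.0265) and by 0.78 ± 0.20 titled 8h2h (adjusted p = 0.0133), with no overlap between the lines. Titled 8h it was 0.49 ± 0.20 higher (adjusted p = 0.11), where the KO-labelled replicate c, at 1.09, lay among the Rescue-labelled arrays, and without that replicate it was 0.72 higher (adjusted p = 0.0219). The call at 0h was lost when any 1 of 5 of its 6 arrays was left out (adjusted p from 0.0562 to 0.0967; not Rescue-labelled replicate c). That titled 8h2h was lost without KO-labelled replicate a or Rescue-labelled replicate b (adjusted p = 0.0576 and 0.0685) and with only the arrays compared (0.0832).

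Ccnd3 was at 5.98, 5.54 and 5.91 on the KO-labelled arrays titled 8h and at 4.74, 4.90 and 5.02 on the Rescue-labelled ones. These levels did not overlap and differed by 0.93 ± 0.25 (adjusted p = 0.0167), or 1.90-fold. The call was lost without KO-labelled replicate a or c or Rescue-labelled replicate a (adjusted p from 0.0585 to 0.0737). The difference was 0.50 ± 0.25 at 0h (adjusted p = 0.206) and 0.62 ± 0.25 titled 8h2h (adjusted p = 0.098). Without the array that stood apart, at 4.89 against 5.88 and 5.79 on the other 2 of its group, the latter was 0.93 (adjusted p = 0.00428).

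Cdkn1b was higher in the KO-labelled cells by 0.79 ± 0.26 titled 8h (adjusted p = 0.0445). This call was lost when any 1 of 5 of the 6 arrays was left out (adjusted p from 0.089 to 0.167, not KO-labelled replicate b). It was also lost with normexp background correction (0.0609) and without the filter on dim probes (0.0688). At 0h Cdkn1b was 0.74 ± 0.26 higher (adjusted p = 0.064), with an adjusted p of 0.0327 with the slide as a replicate block and 0.025 without the array that stood apart. Titled 8h2h the difference was 0.55 ± 0.26 (adjusted p = 0.159), and 0.80 without that array (adjusted p = 0.0281). Cdk6 was 0.60 ± 0.22 higher titled 8h (adjusted p = 0.0702; 0.0426 with the replicate block and 0.0433 without that array), and titled 8h2h 0.52 ± 0.22 higher (adjusted p = 0.115; without that array it was 0.67, with an adjusted p of 0.0492, whereas quantile normalization turned it to -0.77). Ccne1, Cdk4 and Cdkn1c had no call between lines; the differences of Ccne1 were 0.25 ± 0.17, -0.08 ± 0.15 and -0.36 ± 0.15 at the 3 titles (adjusted p = 0.366, 0.791 and 0.115), the last being -0.17 (adjusted p = 0.306) without the array that stood apart.

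The scaling bears on these calls. Without scaling between arrays the median of all genes itself rose by 0.29 and 0.28 from 0h to 8h, and by 0.36 and 0.47 from 0h to 8h2h, in the Rescue- and KO-labelled cells, so the changes above are relative to the bulk of genes. Of the 20 calls, 12 were then lost and 0 turned direction: all 6 of Ccnd1, all 3 of Cdkn1b, and those of Ccnd2 from 0h to 8h in the Rescue-labelled cells, from 8h to 8h2h in the KO-labelled cells and between lines at 0h. Of these 12 differences 7 were smaller and 5 larger without scaling, where the SE of Ccnd1, for one, was 0.34 in place of 0.20. Ccnd1 was 0.62 lower (adjusted p = 0.267) and 0.87 lower (adjusted p = 0.119) at 8h than at 0h, and Cdkn1b 0.79 lower (adjusted p = 0.244) and 0.78 lower (adjusted p = 0.268). The 5 that were larger were Ccnd1 between lines at 0h, at 0.85 (adjusted p = 0.189), and titled 8h2h, at 1.04 (0.0759), Cdkn1b between lines titled 8h, at 0.90 (0.256), Ccnd2 from 0h to 8h in the Rescue-labelled cells, at 0.93 (0.069), and Ccnd2 between lines at 0h, at 1.11 (0.0501).

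Other genes of the pathway came from lists made for these cells. Of 5 further CDK inhibitor genes, 1 rose and 2 fell from 0h to 8h in each line, against 25.8% and 22.5% of all genes called. Cdkn2b (p15Ink4b) rose by 1.18 ± 0.23 (adjusted p = 0.0012) and 0.83 ± 0.23 (adjusted p = 0.0155), and Cdkn2c (p18Ink4c) fell by 0.53 ± 0.17 (adjusted p = 0.0307) and 0.97 ± 0.17 (adjusted p = 0.000567), in the Rescue- and KO-labelled cells. Cdkn1a (p21Cip1) fell in the KO-labelled cells by 1.03 ± 0.22 (adjusted p = 0.0037); its difference in the Rescue-labelled cells was positive, at 0.15 ± 0.22 (adjusted p = 0.708). Cdkn2d (p19Ink4d) fell in the Rescue-labelled cells by 0.61 ± 0.20 (adjusted p = 0.0343), against -0.27 ± 0.20 (adjusted p = 0.389). The difference between lines in these changes was not called for either gene. The medians of the list were 0.15 and -0.27, against -0.04 and -0.02 for all genes. Between lines, 0 of the 5 were higher and 1, 2 and 2 were lower in the KO-labelled cells at 0h, 8h and 8h2h. Their medians there were -0.17, -0.49 and -0.59, and 16.4%, 19.3% and 20.0% of all genes were called. This direction was opposite to that of Cdkn1b.

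Of 13 RB and E2F genes, 2 rose and 4 fell in the Rescue-labelled cells and 4 rose and 4 fell in the KO-labelled cells from 0h to 8h, with the same background. E2f1, an activator of replication genes, fell by 1.08 ± 0.14 (adjusted p = 3.3e-05) and 1.27 ± 0.14 (adjusted p = 7.1e-06). E2f2, a second activator, rose by 0.47 ± 0.15 (adjusted p = 0.0365) and 1.42 ± 0.15 (adjusted p = 8.3e-06), then fell by 1.25 ± 0.15 (adjusted p = 0.000312) and 2.08 ± 0.15 (adjusted p = 1.0e-06) on the arrays titled 8h2h. Rb1 itself fell by 0.86 ± 0.17 (adjusted p = 0.00156) and 0.87 ± 0.17 (adjusted p = 0.0016), and Tfdp2, a partner subunit of E2F factors, by 1.38 ± 0.14 (adjusted p = 4.6e-06) and 0.89 ± 0.14 (adjusted p = 0.000288). E2f7, a repressor, also fell in both lines and E2f6, another repressor, rose in both, whereas E2f8 and Rbl2 rose in the KO-labelled cells by 0.71 ± 0.12 (adjusted p = 0.000528) and 0.71 ± 0.22 (adjusted p = 0.0293). The medians of the list were -0.22 and 0.10, or -0.17 and 0.12 relative to the median of all genes, with or without scaling.

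**Figure D4:**
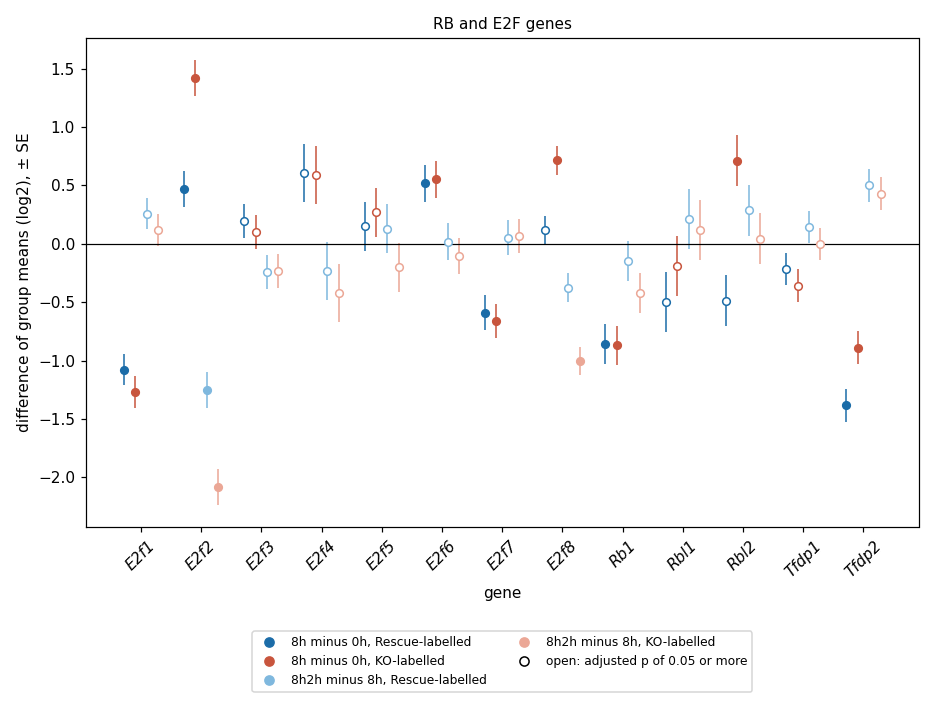
Differences between titles for the 13 RB and E2F genes in each line (log2, points) with their SE (bars), filled where the adjusted p was below 0.05. E2f2 is the gene with filled points above 0 from 0h to 8h and below 0 from 8h to 8h2h in both lines, and E2f1, Rb1, E2f7 and Tfdp2 are filled below 0 from 0h to 8h in both.

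Of 18 genes known as E2F targets, most of them for DNA replication, 3 fell in the Rescue-labelled cells, Cdt1 and Rrm2 among them, and 2 in the KO-labelled cells (Mcm6 and Rrm2) from 0h to 8h, against 25.8% and 22.5% of all genes called. Rrm2, a ribonucleotide reductase subunit, fell by 0.69 ± 0.14 and 0.70 ± 0.14 (adjusted p = 0.00191 in each). Between 0h and 8h2h 5 and 10 of the 18 were lower, against 18.2% and 21.1% of all genes called. Without scaling the medians of the list were 0.01 and 0.08 from 0h to 8h, against -0.32 and -0.22 with it, and 0.06 and 0.04 from 0h to 8h2h, against -0.35 and -0.48; relative to the median of all genes they were -0.28 and -0.20, then -0.30 and -0.43, with or without scaling. Mybl2, a Myb-family factor of the S and G2 phases, was higher in the KO-labelled cells at each title, by 0.88 ± 0.18 (adjusted p = 0.00331), 1.16 ± 0.18 (adjusted p = 0.000359) and 0.94 ± 0.18 (adjusted p = 0.00175).

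Markers of cell types that such cultures can hold moved with some of these comparisons. Of all genes, 16.4%, 19.3% and 20.0% were called between lines at 0h, 8h and 8h2h. From 0h to 8h, 25.8% and 22.5% were called in the Rescue- and KO-labelled cells. All 10 embryonic stem cell markers were well above background on all 18 arrays; 5, 2 and 3 of them were higher and 0 lower in the KO-labelled cells at 0h, 8h and 8h2h, and from 0h to 8h 2 rose and 3 fell in the Rescue-labelled cells and 2 rose and 2 fell in the KO-labelled cells. All 10 trophoblast markers were tested, and their summed level (log2) ranged from 7.91 to 8.12 at 0h, 8.59 to 8.66 titled 8h and 8.45 to 8.59 titled 8h2h in the Rescue-labelled cells, and from 4.28 to 5.01, 6.09 to 6.44 and 5.75 to 6.03 in the KO-labelled cells. Thus 8 of 10 were lower in the KO-labelled cells at 0h, and from 0h to 8h 4 rose in the Rescue-labelled cells and 5 rose and 1 fell in the KO-labelled cells. Of 10 primitive endoderm markers 5 were lower and 1 higher in the KO-labelled cells at 0h. Of 10 fibroblast markers 7 were tested, and Lum was well above background on 0 arrays. Of the 7, only Thy1 rose from 0h to 8h, by 1.93 ± 0.22 (adjusted p = 1.3e-05) and 3.12 ± 0.22 (adjusted p = 1.3e-07), while Fbln2 and Pdgfrb fell in both lines and Col1a1, Col1a2, Col3a1 and Dcn had no call. The summed level of the 7 lay between 1.68 and 1.89 at 0h and between 3.28 and 3.52 titled 8h in the Rescue-labelled cells, and between 1.76 and 2.05 and between 4.51 and 5.0 in the KO-labelled cells. Thy1 made up most of it, with means of 1.40 and 3.33, and 1.65 and 4.77. The part of these cell types in the differences of the 9 genes was not tested. In bulk RNA, fewer cells with a transcript and less of it per cell cannot be told apart.

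For each of the 5 genes called at least once, the genes whose level over the arrays was most like it were read off from 14873 others by Pearson correlation. They were Lrig3, Sbk1 and Add3 for Ccnd1 (r of 0.94 to 0.95), Aplp1, Ivns1abp and Kdm6b for Ccnd2 (0.95 to 0.96), Aldh2, Ndufa7 and Zbtb45 for Ccnd3 (0.95 to 0.99), Gnl2, Mpzl2 and Tbc1d1 for Ccne1 (0.96) and Stat2, Zfp292 and Cpt1a for Cdkn1b (0.94 to 0.98). These describe 18 arrays (17 for Ccne1) that share their groups, slides and scaling, and are given with no p.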

How the data were processed

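RNA of 18 mouse embryonic stem cell samples was hybridised to 1-colour Agilent arrays, 3 per group; per the labels' protocols 100 ng of RNA was labelled. The deposited processed signal is an intensity; per the file headers the authors used Feature Extraction 12.0.1.1 from Agilent, with its background subtraction. The authors' deposited table of values held the same intensity for all 62976 spots of each array, with no scaling between arrays. The labels name Cy5 and the headers a green channel.

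Here the signal was taken to log2 and the 75th percentile of each array over all non-control probes subtracted. Outlier spots were set to missing. Probes were kept (34197) where at least 1 group had every array well above background, and a gene was read from its brightest kept probe (16069 genes, 5737 with several). No spot was saturated, and the number of arrays limits the precision. Probes were named through RefSeq transcripts (32994 of 56605 have 1 symbol; 23611 have none) and gene names can be old.

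The model was 1 mean per group over the 18 arrays, in limma 3.58.1 (R 4.3.3), with 11 contrasts, two-sided moderated tests and Benjamini-Hochberg adjustment over all genes, adjusted p below 0.05; the procedure was tested on simulated data. Letters a, b and c each mark 1 slide. The position of a group was the same from slide to slide, so that group and position cannot be told apart. The model had no slide term. On the same slide, deviations from group means correlated above 0.1 in 28 of 45 pairs of arrays (median 0.14, from -0.06 to 0.73), a majority but not all, and the slide was tried as a block.

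The alternatives were normexp (offset 50), quantile normalization, no scaling, no filter and a stricter filter on dim probes, averaging the probes of a gene, the block, only the arrays compared, leaving out each array and, added after seeing the data, outlier spots kept. The 9 genes and the gene lists were chosen with earlier results of these data known. All 9 genes were named whatever their values, with called or preset genes of the lists and the 3 genes most like each called member, and not every gene the rule allows is printed.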

Additional observations from a re-analysis of the deposited data

Results flagged for a closer look

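The response from 0h to 8h differed between the lines for 308 of 16069 genes (1.92%), by the limma test of the difference itself. Among them, outside the list of 9, were E2f2 and Egr1, and also 2 trophoblast markers and 1 primitive endoderm marker. From 0h to 8h, E2f2 rose by 0.95 ± 0.22 (log2) more in the KO-labelled cells (adjusted p = 0.037), with a rise in each line. Egr1, an immediate early gene of the ERK pathway, rose by 2.01 less in the KO-labelled cells, a difference of -2.01 ± 0.22 (adjusted p = 0.00046): its level went up by 4.63 ± 0.16 in the Rescue-labelled cells and by 2.62 ± 0.16 in the KO-labelled cells, from a level at 0h that was 1.58 ± 0.16 higher in the KO-labelled cells.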

How the results depend on the processing

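Over 1645 comparisons of 99 results on the 9 genes with their alternatives, 1567 kept their side of the threshold, 56 fell short of it and 22 newly passed it. Of the calls, 0 reversed, but differences that were not called could change sign and still count as kept. Cdk6 between lines titled 8h2h did so with quantile normalization, from 0.52 to -0.77. The mean of a gene's probes and keeping outlier spots moved no result across the threshold. With the slide as a replicate block 2 results newly passed (adjusted p = 0.0327 for Cdkn1b between lines at 0h and 0.0426 for Cdk6 between lines titled 8h) and no call was lost. The values below count called genes, Rescue-labelled before KO-labelled where both are given; the cause of a moved count was not tested. Without scaling, all genes called were 2028 and 1829 for 8h against 0h (4139 and 3613 with it), 91 and 340 for 8h2h against 8h (377 and 974), 1691 for 8h2h against 0h in the Rescue-labelled cells (2918), and 1013, 1213 and 1268 between lines at 0h, 8h and 8h2h (2632, 3106 and 3215), and the 2 differences of change had 54 and 5 (308 and 10). The members called without scaling were 1 and 2 for 8h against 0h, 0 for 8h2h against 8h in the KO-labelled cells, 1 and 1 for 8h2h against 0h, and between lines 0 at 0h and 1 titled 8h2h. Without a filter, all genes called were 239 for 8h2h against 8h in the Rescue-labelled cells, 7368 between lines titled 8h2h, and 169 and 6 for the differences of change, and in the KO-labelled cells 0 members were called for 8h2h against 8h and 1 against 0h. With only the arrays compared, all genes called were 1480 and 98 for 8h2h against 8h, 827 for 8h2h against 0h in the KO-labelled cells, 4698 and 1457 between lines titled 8h and 8h2h, and 6 for the second difference of change; the members called were 2 and 0 for 8h2h against 8h, 0 for 8h2h against 0h in the KO-labelled cells and 1 between lines titled 8h2h. Normexp gave 0 members for 8h2h against 8h in the KO-labelled cells, and the second difference of change had 1 gene with normexp, 3 with quantile normalization and 2 with the stricter filter. Leaving out each array in turn gave, for the members, 3 to 5 and 3 to 4 called for 8h against 0h, 0 and 0 to 2 for 8h2h against 8h, 1 to 3 and 1 to 2 for 8h2h against 0h, and 1 to 3, 1 to 4 and 1 to 5 between lines. For all genes it gave 3039 to 5658 and 2605 to 5025 for 8h against 0h. The ranges were 181 to 717 and 464 to 1213 for 8h2h against 8h, and 2030 to 4444 and 2442 to 3934 for 8h2h against 0h. Between lines they were 1721 to 4141, 1945 to 4661 and 2182 to 4326 at 0h, 8h and 8h2h. The differences of change had 145 to 759 and 5 to 17. Signal near background limits Ccne2 and, on some arrays, other dim genes.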

Other observations

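Of 12 genes for other cyclins, CDKs and CDC25 phosphatases, 1 rose and 3 fell from 0h to 8h in the Rescue-labelled cells and 1 rose and 2 fell in the KO-labelled cells, against 25.8% and 22.5% of all genes called. Cdk7, the kinase that activates other CDKs, rose by 0.49 ± 0.16 (adjusted p = 0.0347 in limma) and 0.70 ± 0.16 (adjusted p = 0.00501). Cdc25b, a phosphatase that activates CDKs at mitosis, fell by 0.59 ± 0.17 (adjusted p = 0.019) and 0.69 ± 0.17 (adjusted p = 0.0081). Ccna2 and Ccnb2, cyclins of the S and G2 phases, fell in the Rescue-labelled cells by 0.58 ± 0.19 (adjusted p = 0.0331) and 0.58 ± 0.18 (adjusted p = 0.0278), against -0.26 ± 0.19 and -0.19 ± 0.18 in the KO-labelled cells, which were not called. Cdk2, the partner of cyclin E, was 0.54 ± 0.15 higher in the KO-labelled cells titled 8h (adjusted p = 0.0242).

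Of 7 genes for the turnover of cyclins and inhibitors, 1 rose from 0h to 8h in the Rescue-labelled cells and 2 in the KO-labelled cells, and none fell. Of all genes, 25.8% and 22.5% were called. Fbxo4, an F-box protein described as a ligase subunit for cyclin D1, rose by 1.65 ± 0.20 (adjusted p = 2.2e-05) and 0.96 ± 0.20 (adjusted p = 0.00254), and it was lower in the KO-labelled cells at each title, by 0.64 ± 0.20 at 0h (adjusted p = 0.04), by 1.33 ± 0.20 titled 8h (adjusted p = 0.000286) and by 1.48 ± 0.20 titled 8h2h (adjusted p = 0.000126). Cks1b, a cofactor in the turnover of p27Kip1, rose in the KO-labelled cells by 0.46 ± 0.15 (adjusted p = 0.045); its difference in the Rescue-labelled cells was 0.11 ± 0.15 (adjusted p = 0.679). These lists, too, were chosen with earlier results known.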
